A study of Homo sapiens with 24 samples.

Results

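The genes of chemoattractant receptors followed here are CXCR1, CXCR2, CXCR4, CXCR5, CCR1, CCR2, FPR1, FPR2, C5AR1 and PTAFR, which are 10 of the 60655 genes in the count table. They were taken by name as a set of chemokine, formyl peptide, complement and platelet-activating factor (PAF) receptors, not by a cut on their measured levels. Earlier results of these data were known when they were chosen. The RNA came from NB4, a cell line of acute promyelocytic leukaemia (APL), and from HL-60, an acute myeloid leukaemia line that is not APL, both unmodified and each a single established line. Cells were untreated, or had 48 h of 1.0 µM all-trans retinoic acid (ATRA), of 0.8 µM arsenic trioxide (ATO), or of both drugs, for which the labels give no separate doses. That made 8 groups of 3 libraries. How long untreated cells were cultured is not stated. The 3 libraries of a group carry batch numbers, with no word on whether each came from its own culture, so a p-value here reflects the spread among libraries, which may be technical.

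Chemoattractant receptors are G protein-coupled receptors with a bundle of membrane-spanning helices, and most signal through inhibitory G proteins, phospholipase C beta and phosphoinositide 3-kinase gamma to move a leukocyte up a gradient. Maturing neutrophils leave the marrow as retention through CXCR4 and its ligand CXCL12 gives way to CXCR2, and mature cells then find bacteria and damage through formyl peptide, complement C5a and PAF receptors. ATRA drives leukaemic promyelocytes toward granulocytes, and ATO leads to loss of the PML-RARA fusion protein of APL. The study compared what the drugs, alone and together, do to transcription in a line with that fusion and a line without it.

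Library totals ran from 37811652 to 57795273 counts, and levels below are counts scaled to the library total (CPM). The drugs left their usual marks. The retinoid target TGM2 was at 0.0463 ± 0.0480 CPM (mean ± SD, n = 3) in untreated NB4 and 5390 ± 703 with ATRA. The arsenic-responsive gene HMOX1 was at 0.974 ± 0.0946 in untreated HL-60 and 79.0 ± 8.34 with ATO. HMOX1 was not particular to ATO. Its log2 change was 6.33 in HL-60 and 5.64 in NB4 with ATO, and 3.01 and 2.525 with ATRA alone. Promyelocyte markers (MPO, ELANE, PRTN3, AZU1 and CTSG) all had counts in both untreated lines, summing to 9547 to 10270 CPM in NB4 and 3412 to 3797 in HL-60. Their sum was lower with each treatment. In NB4 it was 6141 to 6638 CPM with ATRA, 8488 to 8533 with ATO and 2297 to 3030 with both. In HL-60 it was 1045 to 1163, 1825 to 1952 and 129.4 to 173. The genes did not all fall: in NB4 PRTN3 and AZU1 rose with ATRA (log2 change 2.03 and 0.53) and PRTN3 with ATO (0.28). MPO and CTSG fell with each of these drugs in NB4. Markers of mature neutrophils were summed too: the 7 genes ran from 70.1 to 84.5 CPM in untreated NB4, 559 to 712 with ATRA, 110.5 to 119 with ATO and 807 to 858 with both. In HL-60 that sum was 151 to 158, 396 to 430, 149 to 172 and 213 to 243 CPM in the same order. Within it MMP9 went the other way, with log2 changes of -3.18 in NB4 and -3.29 in HL-60 with ATRA. With ATO it gave -1.14 and -1.34. ITGAM, CSF3R and LTF rose with ATRA in both lines. CEACAM8, FCGR3B and CD177 were at 0 in untreated NB4, and the 3 erythroid markers were at 0 in every library. Among markers of other blood cells, T and NK genes summed to 33.1 to 34.7 CPM in untreated NB4 and 121 to 134 with both drugs, against 44.3 to 51.5 and 73.2 to 94.5 in HL-60, with CD8A at 0 throughout. Platelet genes summed to at most 20.5 CPM, with PF4 and GP9 at 0 throughout. The neutrophil sum was above untreated with ATRA and with both drugs in each line, as most of the receptors were, but in HL-60 it was lower with both than with ATRA alone, where CCR1, C5AR1 and PTAFR were higher. The part of these cell markers in the receptor changes was not tested. In bulk RNA, more cells of a kind and more RNA per cell cannot be told apart.

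Upstream sequence is shown for 4 receptors that rose with ATRA in both lines, one for each of a lymphoid chemokine, complement, PAF and inflammatory chemokine receptor, so that the DNA before their RefSeq starts can be seen beside the changes. For CXCR5 and C5AR1 that start lies inside the longer gene span of GENCODE v29 given below, so their windows are within the annotated gene. They were chosen after their values were seen. Only bases outside annotated exons are printed. Each is the strand of the gene, 5′ to 3′, from RefSeq on GRCh38.p14. Capitals mark matches, on either strand, to the core motif of retinoic acid receptors (AGGTCA), a PU.1 core (GAGGAA) or a C/EBP pattern (TTNNGNAA).
CXCR5, chr11:118893142-118893391, plus strand: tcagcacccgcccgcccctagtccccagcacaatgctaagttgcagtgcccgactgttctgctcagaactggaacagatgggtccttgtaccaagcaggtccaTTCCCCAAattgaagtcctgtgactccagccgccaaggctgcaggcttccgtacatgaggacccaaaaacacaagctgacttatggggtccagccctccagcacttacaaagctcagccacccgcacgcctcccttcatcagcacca
C5AR1, chr19:47309611-47309860, plus strand: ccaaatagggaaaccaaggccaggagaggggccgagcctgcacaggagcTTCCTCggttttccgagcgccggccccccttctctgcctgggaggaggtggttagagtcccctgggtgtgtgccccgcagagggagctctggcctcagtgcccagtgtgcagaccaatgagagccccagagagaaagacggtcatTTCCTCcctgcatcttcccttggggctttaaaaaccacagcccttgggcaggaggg
PTAFR, chr1:28193937-28194106, minus strand: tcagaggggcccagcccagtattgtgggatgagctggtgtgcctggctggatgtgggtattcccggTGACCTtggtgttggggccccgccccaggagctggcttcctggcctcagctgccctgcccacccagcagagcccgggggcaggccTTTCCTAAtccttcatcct
CCR1, chr3:46208397-46208563, minus strand: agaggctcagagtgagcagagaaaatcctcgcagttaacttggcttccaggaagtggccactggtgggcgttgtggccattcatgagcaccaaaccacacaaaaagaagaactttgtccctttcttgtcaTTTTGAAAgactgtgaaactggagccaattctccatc
Of the 4 windows shown, that of PTAFR alone held the retinoid motif, with a C/EBP pattern as well. The window of another RefSeq start of PTAFR, wholly within exons and so not printed, held neither and had the PU.1 core at 2 places. C5AR1 held the PU.1 core at 2 places, and CXCR5 and CCR1 each held 1 C/EBP pattern. Such letters are common: of 35116 upstream windows of 250 bases, 12.1% held AGGTCA, 23.6% held GAGGAA and 33.2% held TTNNGNAA, and the patterns searched do not overlap in the sequences above. The matches describe these windows and are not evidence of binding.

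Most of the receptors rose in NB4 with each treatment. With ATRA, of 9 receptors tested, 8 rose and only the monocyte chemokine receptor CCR2 fell, while 31.3% of all genes tested rose and 28.6% fell. CXCR1 had too few reads to be tested in NB4. With ATO, 7 of 9 rose and CXCR4 and CCR2 fell, against 21.2% and 19.6% of all genes. With both drugs 8 of 9 rose and CCR2 fell, against 35.4% and 32.8%. The median log2 change of the 9 was 3.39 with ATRA, 0.94 with ATO and 4.56 with both, beside 0.03, 0.02 and 0.05 over all genes tested. CXCR5 and FPR2 had 0 counts in untreated NB4, so their fitted changes are not sizes, and with them set at their lower bounds the medians were 3.39, 0.78 and 4.56. These 3 comparisons share their untreated libraries. Scaling by library size alone moved the median of all genes in the ATO comparison by 0.11 on the log2 scale, with 69% of calls upward in place of 51.9%.

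In HL-60 the medians stood in the same order and were smaller. They cover 10 receptors with the scarce CXCR1 included, against 9 without it in NB4, so the sets are not alike. ATRA raised 8 of 10 receptors and lowered CCR2, against 25.2% and 23.3% of all genes tested. ATO raised CCR1, FPR1 and C5AR1 and lowered CCR2, against 16.5% and 12.1% of all genes tested; as 1 to 3 genes of 10, these counts are small. Both drugs together raised 6 of 10 and lowered CXCR2 and CCR2, against 30.7% and 29.7%. The medians were 2.27 with ATRA, 0.48 with ATO and 2.36 with both, beside 0.01, 0.02 and 0.00 over all genes tested.

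**Figure D1:**
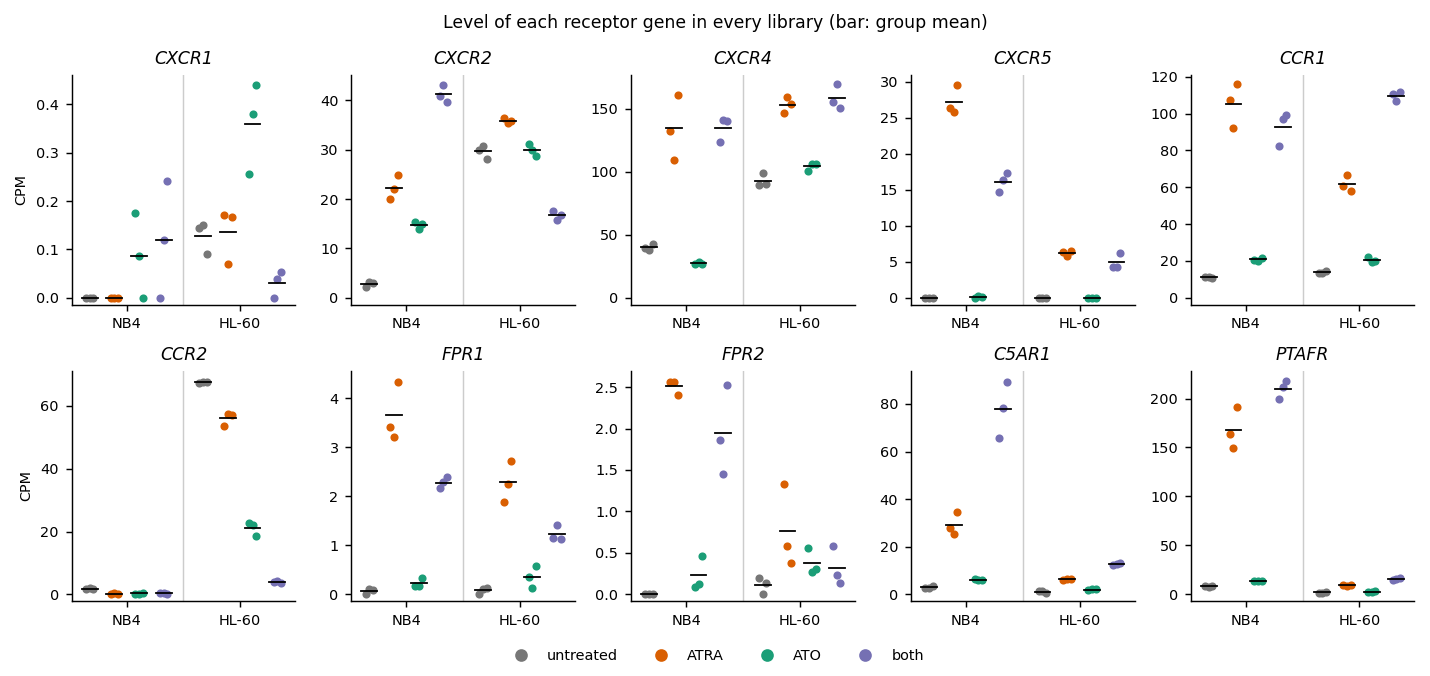
Level of each receptor gene in CPM (vertical axis, linear, a separate scale per panel) in every library of NB4 and HL-60; each point is 1 library, the bar is the mean of 3, and colours are treatments. PTAFR and C5AR1 are highest in NB4 with both drugs, CCR2 is highest in untreated HL-60, and CXCR2 is lowest in untreated NB4.

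**Figure D2:**
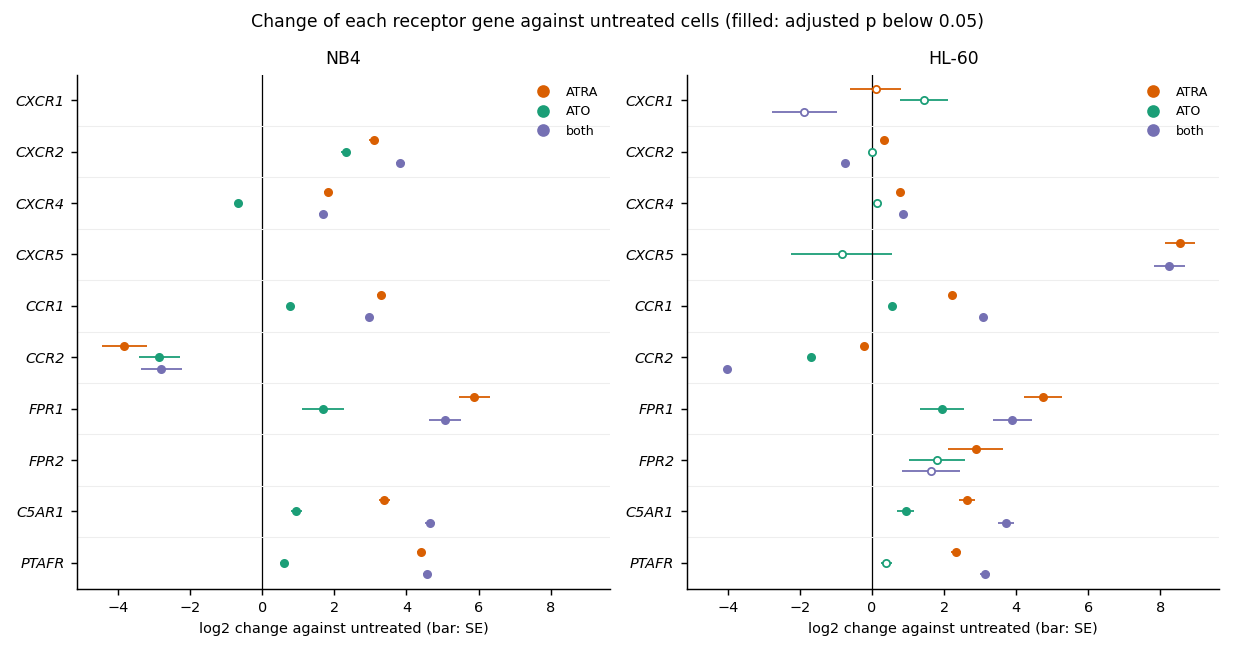
log2 change against untreated cells of the same line (horizontal axis; point: edgeR estimate, bar: SE, filled: adjusted p below 0.05). In NB4, CXCR1 was not tested and CXCR5 and FPR2 are left out because untreated cells had 0 counts; CCR2 is the one receptor to the left of 0 in all 6 comparisons.

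CXCR2, the neutrophil receptor for CXCL8 and related chemokines (chromosome 2, 218125289 to 218137253, plus strand, GRCh38 with GENCODE v29 as for all positions), went opposite ways in the lines with both drugs. Untreated NB4 held 2.11, 3.15 and 2.97 CPM. With ATRA it was 20.1, 22.1 and 24.8, with ATO 13.9 to 15.3, and with both 40.9, 43.2 and 39.7. The 4 groups did not overlap. The log2 change ± SE was 3.09 ± 0.13 with ATRA, 2.32 ± 0.13 with ATO and 3.83 ± 0.13 with both (adjusted p = 2.2e-15, 5.0e-12 and 3.4e-17, edgeR quasi-likelihood test with Benjamini-Hochberg adjustment, n = 3 per group).
In HL-60 CXCR2 started high, at 29.9, 30.9 and 28.2 CPM, above every NB4 library but those given both drugs. ATRA took it to 36.5, 35.4 and 35.8, a small rise of 0.32 ± 0.07 (adjusted p = 0.000382). With ATO it was 31.1, 29.9 and 28.7, overlapping untreated cells. With both drugs it fell to 17.5, 15.8 and 16.8, a log2 change of -0.75 ± 0.07 (adjusted p = 3.7e-09), below all 9 other HL-60 libraries. CXCR2 was thus lower with the combination than untreated in HL-60, and higher in NB4, and the difference between the lines in that response was 4.60 ± 0.14 (adjusted p = 3e-22).

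CXCR1, which shares CXCL8 with CXCR2 and lies next to it (chromosome 2, 218162845 to 218166995, minus strand), was close to absent. NB4 libraries had 0 to 10 counts, and all 6 libraries that were untreated or given ATRA alone had 0. HL-60 had 6, 8 and 4 counts untreated, 8, 4 and 8 with ATRA, 12, 20 and 20 with ATO and 0, 2 and 2 with both. Its counts with ATO were 11.5 times those with both drugs in HL-60 (95% counting interval 4.21 to 43.6), and the fitted difference was -3.32 ± 0.83 (adjusted p = 0.00169). No HL-60 treatment passed the test against untreated cells for CXCR1. How reads shared between close paralogs such as CXCR1 and CXCR2 were counted is not given in the sources used here.

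CXCR4, the receptor for CXCL12 that holds immature cells in the marrow (chromosome 2, 136114349 to 136118165, minus strand), was the most abundant of the 10 per length in untreated cells of both lines, at 18.1 ± 0.968 CPM per kb of exon in NB4 and 41.8 ± 2.23 in HL-60 (SD, n = 3). In NB4 its level was 39.6, 38.4 and 42.5 CPM untreated, 132.6, 109.5 and 161 with ATRA, 26.7, 28.2 and 26.9 with ATO and 123.6, 141 and 140.1 with both. The ATO libraries all lay below the untreated ones and the other 2 treated groups far above. ATRA raised it by 1.81 ± 0.11 and the combination by 1.67 ± 0.10, and with ATO it fell (-0.66 ± 0.11) (adjusted p = 1.3e-12, 3.0e-12 and 3.1e-05).
HL-60 ran from 89.7 to 98.7 CPM untreated, 147 to 159 with ATRA, 101 to 106 with ATO and 150.3 to 170 with both. The rises were 0.77 ± 0.06 with ATRA and 0.85 ± 0.06 with both (adjusted p = 1.15e-10 and 1.01e-11). The ATO libraries lay just above the untreated ones. With ATO the value was 0.15 ± 0.06 and missed the threshold (adjusted p = 0.056); with the batch number as a replicate block it passed (adjusted p = 0.0204), as it did without untreated replicate 2 (0.20, adjusted p = 0.0144). The response of CXCR4 to ATO differed between the lines by -0.79 ± 0.13 (adjusted p = 5.0e-05).

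CXCR5, best known as the receptor that guides B cells and follicular helper T cells to CXCL13 (chromosome 11, 118883766 to 118897799, plus strand), was switched on with ATRA in both lines. NB4 had 0 counts in all 3 untreated libraries and 26.3, 25.8 and 29.5 CPM with ATRA, at least 388-fold higher with a floor of 3 counts per library. With both drugs it held 14.7, 16.3 and 17.4 CPM, at least 230-fold higher. With ATO alone the 3 libraries had 0, 0.214 and 0.0932 CPM, a call (adjusted p = 0.00859) that was lost without ATO replicate 2 (adjusted p = 0.0623) and with limma-voom (0.141). The combination was lower than ATRA alone in NB4, with a log2 difference of -0.90 ± 0.15 (adjusted p = 6.5e-05), and their libraries did not overlap.
In HL-60 CXCR5 also came on with ATRA, to lower levels. Untreated libraries had 2 counts in all, ATRA libraries 6.42, 5.74 and 6.48 CPM, ATO libraries 1 count in all, and libraries with both drugs 4.28, 4.33 and 6.19 CPM. Against untreated, counts were 429-fold higher with ATRA (95% counting interval 118 to 3540) and 337-fold with both (93 to 2790). The combination and ATRA libraries overlapped and were not called different (-0.30 ± 0.20, adjusted p = 0.247). Intervals and floors cover counting error only. All 3 ATRA libraries of NB4 lay above all 3 of HL-60, but the fitted difference between the lines, which rests on groups at or near 0, missed the threshold (4.70 ± 2.25, adjusted p = 0.11; 0.0397 with DESeq2).
The exons of CXCR5 share 3925 of 4431 bases (88.6%) with BCL9L on the opposite strand, and whether reads were counted by strand is not given in the sources used here. BCL9L, a co-activator gene of Wnt signalling, was at 8.87 ± 1.30 CPM in untreated NB4, 27.7 ± 2.82 with ATRA, 10.1 ± 0.854 with ATO and 37.7 ± 1.96 with both (SD, n = 3). Unlike CXCR5 it had counts in every untreated library. B cell markers moved beside CXCR5 in NB4: the sum of 5 ran from 4.82 to 4.85 CPM untreated, 13.8 to 16.5 with ATRA, 11.7 to 14.3 with ATO and 46.0 to 50.5 with both, yet the defining B cell gene MS4A1 was at 0 in every group. In HL-60 the sum was far lower and also moved, from 1.16 to 1.45 CPM untreated to 1.34 to 1.87 with ATRA, 2.37 to 2.78 with ATO, where CXCR5 had 1 count, and 3.02 to 4.17 with both. The part of these markers in the CXCR5 change was not tested.

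CCR1, a receptor for inflammatory CC chemokines such as CCL3 and CCL5 (chromosome 3, 46201709 to 46208396, minus strand), rose with each treatment in both lines. NB4 held 11.3, 11.5 and 11.0 CPM untreated, 107, 92.4 and 116 with ATRA, 20.7, 20.2 and 21.6 with ATO and 82.3, 97.0 and 99.3 with both. HL-60 held 13.2, 13.3 and 14.8 untreated, 60.6, 66.7 and 57.9 with ATRA, 22.0, 19.5 and 20.2 with ATO and 110.7, 107 and 112 with both. No treated library overlapped the untreated ones of its line. The changes in NB4 were 3.29 ± 0.10, 0.78 ± 0.10 and 2.96 ± 0.10 for ATRA, ATO and both, and in HL-60 2.21 ± 0.07, 0.56 ± 0.07 and 3.08 ± 0.07 (the largest adjusted p of the 6 was 3.1e-06). With both drugs against ATRA alone, CCR1 was called in opposite directions in the lines. It was 0.87 ± 0.06 higher in HL-60 (adjusted p = 2e-10) and lower in NB4 (-0.33 ± 0.09, adjusted p = 0.00451). The NB4 call was lost without the combination's replicate 1 (adjusted p = 0.0561) and under library-size scaling (0.0895). In NB4 the libraries with ATRA and with both overlapped, and by batch number 1 pair was higher and 2 were lower. Whether this step differs between the lines was not tested.

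CCR2, the receptor for CCL2 on classical monocytes (chromosome 3, 46353734 to 46360928, plus strand), was the one receptor that fell in all 6 comparisons with untreated cells. HL-60 carried it at 67.4, 67.8 and 67.8 CPM untreated, 53.7, 57.6 and 57.3 with ATRA, 22.6, 22.1 and 18.7 with ATO, and 3.99, 4.29 and 3.49 with both. The 4 groups formed separate steps without overlap. The log2 changes were -0.22 ± 0.07 with ATRA, -1.70 ± 0.07 with ATO and -4.01 ± 0.09 with both (adjusted p = 0.0117, 1.2e-13 and 2.0e-20). The small ATRA fall lost its call without ATRA replicate 1 (adjusted p = 0.0786) and in a fit of all 24 libraries (0.1).
NB4 had little CCR2 from the start, at 1.53, 2.02 and 1.64 CPM. ATRA libraries held 0, 0.302 and 0.0462, ATO libraries 0.175, 0.214 and 0.373 and combination libraries 0.253, 0.281 and 0.241. All 9 treated libraries lay below the untreated ones, with changes of -3.83 ± 0.64, -2.87 ± 0.57 and -2.80 ± 0.57 (adjusted p = 1.9e-05, 0.000346 and 0.000154), and the ATRA value rests on 14 counts, moving to -5.97 without ATRA replicate 2. With that library left out, the combination was also above ATRA alone (3.16, adjusted p = 0.00578, against 1.03 ± 0.70 and 0.27 with it). Markers of monocytes and macrophages, 5 genes, summed to 9.43 to 11.6 CPM in untreated HL-60 and 8.49 to 9.02 with both drugs, and to 4.23 to 4.98 and 16.9 to 22.6 in NB4, with MRC1 at 0 in every group; their part in the fall of CCR2 was not tested.

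CCR2 fell while CCR1, CCR3 and CCRL2, which lie within 500 kb of its start on chromosome 3, mostly rose. CCRL2, a non-signalling receptor that presents chemerin, 53.4 kb away, rose in all 6 comparisons, by 2.08 to 5.31. CCR3, the eotaxin receptor, starts on the other side (-190.1 kb) and rose in all but NB4 with ATO (0.90 ± 0.46, adjusted p = 0.126). CCR1 lies within the span of CCR3 on the other strand, though their exons share no base.

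**Figure D3:**
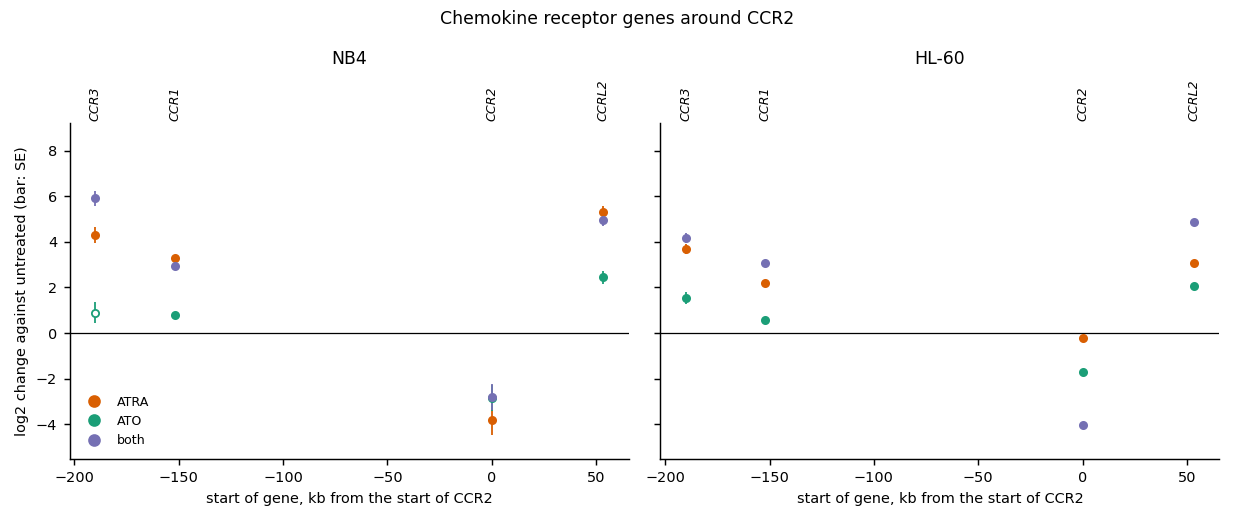
log2 change against untreated cells (vertical axis; bar: SE; filled: adjusted p below 0.05) of CCR2 and 3 chemokine receptor genes within 500 kb of it, by the distance of their starts from that of CCR2 in kb (horizontal axis). CCR2 lies below 0 with each treatment in both lines, and CCR3, CCR1 and CCRL2 lie above.

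FPR1 and FPR2, receptors for bacterial formyl peptides that lie together on chromosome 19 (FPR1 51745172 to 51804110, minus strand; FPR2 51752026 to 51770526, plus strand), stayed low at their highest. FPR1 in NB4 had 0, 0.0984 and 0.0862 CPM untreated, 3.41, 3.22 and 4.34 with ATRA, 0.175, 0.171 and 0.326 with ATO and 2.16, 2.29 and 2.39 with both. Its counts were 59.1-fold higher with ATRA (95% counting interval 29.8 to 138), 3.57-fold with ATO (1.6 to 9.01) and 36.7-fold with both (18.4 to 85.7). In HL-60 it had 0, 0.113 and 0.137 CPM untreated, 1.88, 2.25 and 2.72 with ATRA, 0.342, 0.133 and 0.571 with ATO and 1.16, 1.41 and 1.14 with both.
FPR1 thus followed ATRA in both lines, with log2 rises of 5.89 ± 0.44 in NB4 and 4.74 ± 0.53 in HL-60 (adjusted p = 8.7e-11 and 1.0e-07). The rises with ATO, 1.69 ± 0.58 and 1.95 ± 0.61 (adjusted p = 0.0245 and 0.0194), are thin. The NB4 one was lost without untreated replicate 1 (0.103) or ATO replicate 3 (0.118), and with limma-voom (0.0725) and halved counts (0.0621). The HL-60 one was lost without untreated replicate 1 (0.0774) or ATO replicate 3 (0.142), and with limma-voom (0.0703).
FPR2, which also binds annexin A1 and serum amyloid A, had 0 counts in untreated NB4 and 2.57, 2.57 and 2.40 CPM with ATRA, at least 35.8-fold higher, with 1.86, 1.45 and 2.53 with both, at least 27.8-fold, and 0.0876, 0.128 and 0.466 with ATO, at least 3.24-fold. In HL-60 it held 0.191, 0 and 0.137 CPM untreated and a scattered 1.33, 0.588 and 0.376 with ATRA, a rise of 2.88 ± 0.76 (adjusted p = 0.00324). That rise was 3.57 without untreated replicate 1, 2.25 without untreated replicate 2 and 2.23 without ATRA replicate 1. With ATO it held 0.556, 0.266 and 0.308 (1.80 ± 0.79, adjusted p = 0.0933, or 0.047 with the batch as a replicate block), and with both 0.578, 0.232 and 0.132 (1.64 ± 0.81, adjusted p = 0.0857). The 2 genes overlap in span on opposite strands but share no exon base.

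C5AR1, the signalling receptor for complement C5a (chromosome 19, 47290023 to 47322066, plus strand), rose with each treatment in both lines and had the largest estimate, of the receptors called, for what ATO added to ATRA in NB4. That line held 2.52, 2.76 and 3.49 CPM untreated, 27.9, 25.4 and 34.7 with ATRA, 6.39, 5.99 and 5.85 with ATO and 65.8, 78.2 and 89.5 with both. HL-60 held 1.34, 1.28 and 0.433 untreated, 6.03, 6.39 and 6.23 with ATRA, 1.88, 2.02 and 2.09 with ATO and 12.4, 12.8 and 13.2 with both. In each line the 4 groups did not overlap. The rises in NB4 were 3.39 ± 0.15, 0.94 ± 0.16 and 4.65 ± 0.15, and in HL-60 2.64 ± 0.21, 0.94 ± 0.24 and 3.72 ± 0.21 for ATRA, ATO and both (the largest adjusted p was 0.00409, for ATO in HL-60). The combination stood above ATRA alone by 1.26 ± 0.12 in NB4 and 1.08 ± 0.17 in HL-60 (adjusted p = 3.2e-08 and 2.3e-05).

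PTAFR, the receptor for the lipid mediator PAF (chromosome 1, 28147166 to 28193936, minus strand), was highest in NB4 with both drugs. NB4 had 8.46, 7.75 and 8.92 CPM untreated, 164, 149 and 191 with ATRA, 14.0, 13.1 and 13.7 with ATO and 199.9, 212 and 217 with both. HL-60 had 1.65, 1.75 and 2.19 untreated, 9.56, 8.41 and 9.39 with ATRA, 2.27, 2.15 and 3.03 with ATO and 15.0, 15.3 and 16.4 with both. Within a line, the groups overlapped only between ATO and untreated HL-60. The rises in NB4 were 4.39 ± 0.10, 0.59 ± 0.10 and 4.56 ± 0.10 (adjusted p = 5.1e-20, 4.2e-05 and 2.2e-20). In HL-60 they were 2.33 ± 0.14 with ATRA and 3.15 ± 0.14 with both (adjusted p = 3.2e-12 and 7.2e-15), and ATO gave 0.39 ± 0.16 (adjusted p = 0.0644), which passed without untreated replicate 3 (0.0339) or ATO replicate 2 (0.0483).

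Set per kb of exon, so that genes can be compared, CXCR4 stood highest in untreated cells and with both drugs in each line, and the order below it differed. In untreated NB4 the order was CXCR4 at 18.1 ± 0.968, CCR1 at 4.13 ± 0.102, PTAFR at 1.78 ± 0.125, C5AR1 at 0.990 ± 0.172 and CXCR2 at 0.849 ± 0.172 CPM per kb, the last 2 within each other's spread. With both drugs it was CXCR4 at 60.7 ± 4.43, PTAFR at 44.5 ± 1.90, CCR1 at 34.0 ± 3.37, C5AR1 at 26.4 ± 4.01 and CXCR2 at 12.8 ± 0.547. In untreated HL-60 CXCR4 at 41.8 ± 2.23 was followed by CCR2 at 18.1 ± 0.0557, CXCR2 at 9.18 ± 0.423 and CCR1 at 5.04 ± 0.332. With both drugs CXCR4 at 71.3 ± 4.62 was followed by CCR1 at 40.2 ± 0.983, CXCR2 at 5.16 ± 0.270 and C5AR1 at 4.34 ± 0.126, then PTAFR at 3.31 ± 0.150, with CCR2 at 1.05 ± 0.108 (SD, n = 3). PTAFR and C5AR1 were at 0.396 ± 0.0607 and 0.345 ± 0.172 in untreated HL-60, so both were higher in NB4 before and after treatment.

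What ATO added to ATRA was read from the combination against ATRA alone. In NB4 CXCR2 (0.74 ± 0.10) and C5AR1 rose and CXCR5, CCR1 and FPR1 fell, 2 and 3 of 9, against 16.8% and 21.2% of all genes tested, so the counts are near the background. FPR1 gave -0.83 ± 0.28 (adjusted p = 0.023), a call that 5 of the 6 fits with 1 library left out did not keep (adjusted p up to 0.118) and that library-size scaling ended too (0.0583). That scaling moved the median of all genes by 0.14 and the share of upward calls from 44.3% to 68.4%, and it brought PTAFR past the threshold (0.32, adjusted p = 0.00225, against 0.17 ± 0.08 and 0.0923). The count of 5 receptors called became 3 without the combination's replicate 1. CXCR4 (-0.14 ± 0.10) was called, at -0.27, without ATRA replicate 2. In HL-60 CCR1, C5AR1 and PTAFR (0.81 ± 0.12) rose and CXCR2 and CCR2 fell (-1.07 ± 0.07 and -3.79 ± 0.09), 3 and 2 of 10 against 22.0% and 21.9%.
Against ATO alone the combination was higher for 8 of 9 receptors in NB4, with CCR2 at 0.07 ± 0.62 not called, against 28.6% of genes higher and 28.3% lower. In HL-60 it was higher for 6 (CXCR4, CXCR5, CCR1, FPR1, C5AR1 and PTAFR) and lower for CXCR1, CXCR2 and CCR2, against 27.5% and 27.0%; under library-size scaling 39.6% of the called genes in place of 50.5% were higher, with a median shift of -0.10.

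The interaction asks whether the change with both drugs differed from the sum of the single changes on the log2 scale. In NB4 CXCR2, CXCR5, CCR1, FPR1, FPR2 and PTAFR were below that sum and CXCR4 and CCR2 above it, 6 and 2 of 9 against 12.5% and 6.14% of all genes tested. CXCR2 gave -1.57 ± 0.16, CCR1 -1.10 ± 0.13 and CXCR4 0.52 ± 0.15 (adjusted p = 3.1e-07, 1.8e-06 and 0.0138), and C5AR1, at 0.32 ± 0.20, was not called. PTAFR at -0.42 ± 0.13 (adjusted p = 0.0226) lost its call without untreated replicate 2, ATRA replicate 3, ATO replicate 1 or the combination's replicate 1 (adjusted p from 0.0591 to 0.0936) and with limma-voom (0.0834), and CXCR5 lost its own with limma-voom (0.0755). CCR2, at 3.90 ± 0.90, moved to 6.02 without ATRA replicate 2. In NB4 it had 222 counts untreated and 14, 34 and 35 with ATRA, ATO and both. So near the floor, a fall as large as the sum of the single falls could hardly be measured.
In HL-60 CXCR1, CXCR2, CCR2, FPR1 and FPR2 were below the sum and CCR1 above it, 5 and 1 of 10 against 18.1% and 14.4%. CCR2 gave -2.10 ± 0.12 and CXCR2 -1.06 ± 0.10 (adjusted p = 9.1e-12 and 2.2e-08), and FPR1 -2.79 ± 0.72 (adjusted p = 0.00466). CCR1 at 0.30 ± 0.10 (adjusted p = 0.0179) was lost without untreated replicate 3, ATRA replicate 3 or ATO replicate 2 (up to 0.0641). CXCR1 (-3.42 ± 1.12, adjusted p = 0.0219) was lost in 6 of 12 fits with 1 library left out (up to 0.0731), and FPR2 (-3.05 ± 1.04, adjusted p = 0.0276) in 4 of 12 (up to 0.126). Whether the interactions differ between the lines was not tested.

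**Figure D4:**
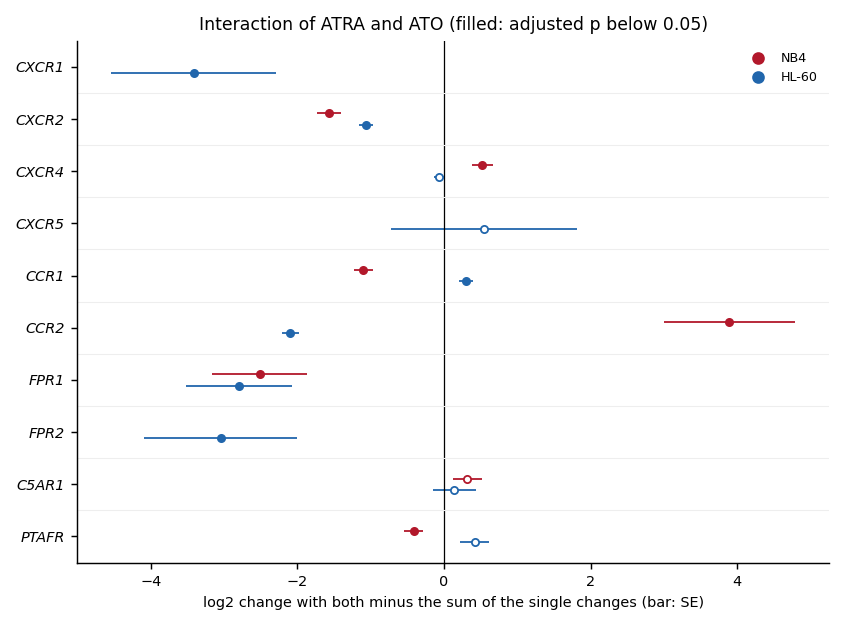
Interaction of ATRA and ATO (horizontal axis: log2 change with both drugs minus the sum of the single changes; bar: SE; filled: adjusted p below 0.05) for each receptor. CXCR2 and FPR1 are below 0 in both lines. CCR2 is above 0 in NB4, where its treated groups had only 14 to 35 counts, and below it in HL-60. CXCR1, CXCR5 and FPR2 are left out for NB4, where CXCR1 was not tested and untreated cells had 0 counts of CXCR5 and FPR2.

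The lines themselves differed before any drug. Untreated NB4 was lower than untreated HL-60 for CXCR1, CXCR2, CXCR4, CCR1, CCR2 and FPR2 and higher for C5AR1 and PTAFR, 6 and 2 of 10, against 34.0% and 29.1% of all genes. CCR2 differed most among receptors with counts in both lines, at -5.44 ± 0.15, followed by CXCR2 at -3.58 ± 0.11, and PTAFR was 2.02 ± 0.13 and C5AR1 1.36 ± 0.22 higher (adjusted p from 7.1e-24 to 3.6e-06). The FPR2 call, with 0 and 14 counts in the 2 groups, was lost with limma-voom (adjusted p = 0.105).
The response to ATRA was larger in NB4 for CXCR2, CXCR4, CCR1, FPR2, C5AR1 and PTAFR and lower for CCR2, 6 and 1 of 10 against 17.7% and 16.8%. CXCR2 gave 2.76 ± 0.14, PTAFR 2.05 ± 0.17, CCR1 1.07 ± 0.12 and CXCR4 1.03 ± 0.13 (adjusted p from 1.8e-16 to 6.4e-08). C5AR1 (0.74 ± 0.28, adjusted p = 0.0373) lost its call in 7 of 12 fits with 1 library left out (adjusted p up to 0.225). The response to ATO differed for 3 receptors, CXCR2 above (2.35 ± 0.14) and CXCR4 and CCR2 below, against 7.11% and 6.00%. CCR2 there (-1.15 ± 0.33, adjusted p = 0.0182) was lost without NB4 untreated replicate 2 or NB4 ATO replicate 1 or 2 (up to 0.106) and with limma-voom (0.113), and library-size scaling moved the share of upward calls among all genes from 54.2% to 70.4%.
The response to both drugs was higher in NB4 for 7 of 10 and lower for none, against 24.9% and 22.7%: CXCR1, CXCR2, CXCR4, CCR2, FPR2, C5AR1 and PTAFR. Library-size scaling moved the median of all genes by 0.14 here and by 0.15 between the untreated lines. PTAFR gave 1.45 ± 0.16, CXCR4 0.84 ± 0.13 and C5AR1 0.96 ± 0.27 (adjusted p = 7.9e-09, 1.2e-06 and 0.00411), while CCR1 gave -0.09 ± 0.12 and was not called. C5AR1 lost the call without HL-60 untreated replicate 2 (0.0648) and with limma-voom (0.117). CCR2, at 1.25 ± 0.39 (adjusted p = 0.00816), lost it without the NB4 combination's replicate 2 (0.0509). Here both lines fell, and HL-60 fell further. NB4 went from 222 to 35 counts, and HL-60 from 9383 to 506. The part of the low NB4 counts in this difference was not tested. CXCR1 and FPR2 rest on NB4 groups with 0 counts, so the sizes of their differences are not given weight.

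**Figure D5:**
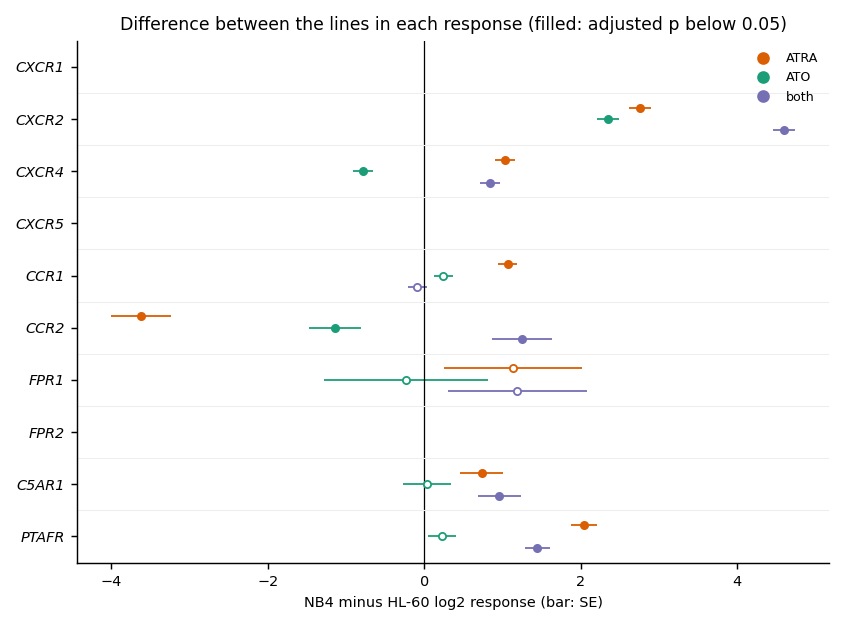
Difference between NB4 and HL-60 in the log2 response to each treatment (horizontal axis, NB4 minus HL-60; bar: SE; filled: adjusted p below 0.05). CXCR2 lies to the right with all 3 treatments. CCR2, which had few counts in treated NB4, changes side from ATRA and ATO to both drugs. CXCR1, CXCR5 and FPR2 are left out because untreated NB4 had 0 counts.

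Several ligand genes of these receptors changed as well. Of 23 ligand genes, 13 were tested in NB4, and 9 rose with ATRA, 6 with ATO and 10 with both, with 2 falling with both; in HL-60 14 were tested and 5, 6 and 7 rose and 2, 1 and 2 fell. Over all genes, 31.3%, 21.2% and 35.4% rose in NB4 and 25.2%, 16.5% and 30.7% in HL-60, with 32.8% falling with both in NB4 and 23.3%, 12.1% and 29.7% falling in HL-60. CCL2, the main ligand of CCR2, went from 1.87 ± 0.178 CPM in untreated NB4 to 619 ± 76.8 with ATRA, 6.12 ± 0.522 with ATO and 179 ± 15.9 with both. In HL-60 it went from 1.11 ± 0.469 to 97.1 ± 7.21, 3.09 ± 0.236 and 795 ± 82.8 (SD, n = 3). All 6 rises passed the test (the largest adjusted p was 5.0e-06), so CCL2 rose in every comparison in which CCR2 fell. ANXA1, whose protein is a ligand of FPR2, rose in HL-60 from 31.2 ± 2.57 to 383 ± 24.9 CPM with both drugs (3.70 ± 0.07, adjusted p = 5.5e-22), and by 0.29 ± 0.09 in NB4 (adjusted p = 0.0067). CCL23, a CCR1 ligand, rose in NB4 from 0.0960 ± 0.0874 to 7.11 ± 0.424 CPM with both. CXCL2, a CXCR2 ligand, had group means of 0.140 to 0.731 CPM and was not called in these comparisons.

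Among 25 other chemoattractant receptors, 15 were tested in NB4 and 12 in HL-60. With ATRA 9 and 7 of them rose, with ATO 7 and 7, and with both 10 and 8, and at most 2 fell in any of these. The shares of all genes that rose were 31.3% and 25.2% with ATRA, 21.2% and 16.5% with ATO and 35.4% and 30.7% with both. The shares that fell were 28.6% and 23.3% with ATRA, 19.6% and 12.1% with ATO and 32.8% and 29.7% with both. C5AR2, the second C5a receptor, rose in all 6, in NB4 from 4.45 ± 0.256 to 39.0 ± 4.22 CPM with both and in HL-60 from 0.646 ± 0.0627 to 2.71 ± 0.373. Their medians with both drugs were 1.96 in NB4 and 2.16 in HL-60, beside 4.56 for the 9 receptors tested in NB4 and 2.36 for the 10 in HL-60. CCR10, a skin-homing receptor, was not called in NB4 (-0.12 ± 0.52 with both) and not tested in HL-60.

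G proteins and effectors, 20 genes, were all tested in NB4 and 19 in HL-60. With both drugs 15 rose and 4 fell in NB4, against 35.4% and 32.8% of all genes, and 9 rose and 5 fell in HL-60, against 30.7% and 29.7%. GNG2, a gamma subunit of the G protein, went from 3.23 ± 0.649 to 573 ± 61.3 CPM in NB4 with both and from 63.8 ± 2.00 to 358 ± 14.8 in HL-60, and fell with ATO alone in both (-0.49 ± 0.14 and -0.18 ± 0.05, adjusted p = 0.00706 and 0.00347). PLCB2, the phospholipase C beta of leukocytes, rose in all 6, by 4.92 ± 0.08 in NB4 and 1.51 ± 0.05 in HL-60 with both. PIK3CG, the kinase that beta-gamma subunits activate, rose by 2.43 ± 0.06 and 3.51 ± 0.05 with both.
Of the 12 genes that desensitise receptors, with both drugs 10 rose and 0 fell in NB4, against 35.4% and 32.8% of all genes, and 5 rose and 7 fell in HL-60, against 30.7% and 29.7%, with medians of 1.03 and -0.36. RGS2 and RGS1, which speed the shut-off of G proteins, rose in both, RGS2 from 2.19 ± 0.521 to 62.5 ± 10.9 CPM in NB4 and from 6.64 ± 0.282 to 28.7 ± 0.950 in HL-60, and RGS1 by 4.38 ± 0.25 and 1.97 ± 0.09. Tested directly, the difference between the lines with both drugs was called for all 12, higher in NB4 for 10 and lower for 2, against 24.9% and 22.7% of all genes.
Of 10 genes for PAF metabolism and ligand breakdown, 7 were tested in NB4 and 9 in HL-60. With both drugs 2 rose and 4 fell in NB4, against 35.4% and 32.8% of all genes, and 5 rose and 3 fell in HL-60, against 30.7% and 29.7%. LPCAT2, which makes PAF, rose by 1.60 ± 0.08 and 0.26 ± 0.05, and PAFAH2, which breaks it down, by 2.96 ± 0.13 and 1.04 ± 0.12. PLA2G7, the secreted PAF hydrolase, was at 0 in all NB4 libraries and rose in HL-60 from 27.7 ± 1.67 to 157 ± 0.289 CPM (2.59 ± 0.06), while LPCAT1 fell (-0.74 ± 0.08 in NB4 and -1.17 ± 0.09 in HL-60). DPP4, a peptidase that trims chemokines, was at 0 in NB4 and not called in HL-60. These list counts are descriptions and carry no test.

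Across the 8 group means some genes ran closely with a receptor, found among 10414 protein-coding genes by Pearson's r of log2(mean CPM + 1), as a description of 8 points that share drugs and lines. For CXCR5 close genes included MMP8 (r = 0.991), a neutrophil collagenase, and CCL24 (0.990). For CCR1 it was FFAR2 (0.991), a short-chain fatty acid receptor, with CCL2 close behind (0.984). For CCR2 they were WDR24 (0.993) and TOP2A (0.983), the latter a gene of dividing cells. For PTAFR the nearest was B4GALT1 (0.995), for C5AR1 H2AC6 (0.995), for FPR2 PITPNC1 (0.993) and PADI2 (0.988), for CXCR2 CYBC1 (0.981), for CXCR4 HIVEP3 (0.976) and for FPR1 GUSB (0.973). The share of candidates reaching r = 0.9 ran from 0.547% for CXCR2 to 4.71% for PTAFR.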

How the data were processed

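Poly(A)-selected RNA of 24 libraries was sequenced. The deposited table holds raw counts per gene, which the authors made with fastp, HISAT2 (GRCh38) and featureCounts, per the submitters' processing notes, which also name DESeq2. The sources used here do not give versions, the strand setting, the annotation release or whether reads or pairs were counted. Even numbers made up 74.4% of counts of 1 to 9 and 51.5% of counts of 500 or more, so halved counts were an alternative. Positions and exon lengths come from GENCODE v29 (58437 of 60655 identifiers matched) and upstream sequence from RefSeq.

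Counts were tested by the quasi-likelihood method of edgeR 4.0.16 in R 4.3.3 after filterByExpr and TMM scaling, in the 12 libraries of each line (16370 genes in NB4, 15895 in HL-60) and all 24 for line differences (17930), with Benjamini-Hochberg adjustment over all genes tested; calls are at an adjusted p below 0.05, and the SE is the log2 change over the root of F. CPM is counts over the library total. Same-numbered libraries are one batch per the labels; over 18 pairs in each line, the correlation of their residuals spanned -0.605 to 0.504 (NB4) and -0.128 to 0.515 (HL-60).

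All 10 receptors are named, and of each list the 2 genes with the smallest p with both drugs in each line and the most abundant one called in neither. Members and lists were chosen with earlier results of these data known; BCL9L was added after its overlap with CXCR5 was seen. Alternatives were DESeq2 1.42.0, limma-voom (limma 3.58.1), other scaling and low-count filters, the replicate block, halved counts, a threshold of 0.01, other sets of libraries in the fit and each library left out. The NB4 fit was also run on simulated data, for ATRA against untreated and for the interaction. Changes were put only into genes with ample counts, so the scarce receptors and the other fits were not covered. No sample was left out. Some named results are not reported here.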

Additional observations from a re-analysis of the deposited data

Results flagged for a closer look

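In the fit of all 24 libraries the response of a receptor differed between NB4 and HL-60 in 17 tests, each value being the log2 response of NB4 minus that of HL-60. With ATRA the difference was 2.755 for CXCR2, 1.032 for CXCR4, 1.068 for CCR1, -3.620 for CCR2, 6.926 for FPR2, 0.737 for C5AR1 and 2.046 for PTAFR. With ATO it was 2.349 for CXCR2, -0.785 for CXCR4 and -1.146 for CCR2. With both drugs it was 7.242 for CXCR1, 4.604 for CXCR2, 0.843 for CXCR4, 1.247 for CCR2, 7.694 for FPR2, 0.958 for C5AR1 and 1.445 for PTAFR. The values of FPR2 and CXCR1 are taken against untreated NB4 libraries with 0 counts and depend on the prior count, so only their direction is read; limma-voom gave 4.303 for FPR2 with ATRA, 5.035 for FPR2 with both and 4.464 for CXCR1 with both, and leaving out 1 library moved FPR2 with ATRA between 6.289 and 7.607. CCR2 with ATRA rests on 14 counts in NB4 and was -5.735 without NB4 ATRA replicate 2.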

How the results depend on the processing

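Over 154 receptor results, 114 of them called, 2649 of 2783 values under the alternatives kept direction and side of the threshold, 70 lost the call, 25 gained one and 39 changed sign. No called result changed sign; 17 lost the call under some alternative, 14 of them under one other than a library left out or the threshold of 0.01. The replicate block changed 2 of 154 calls, raising CXCR4 (0.15) and FPR2 (1.88) in HL-60 with ATO past the threshold, and no other. At 0.01 the receptors called in the HL-60 interaction were 3 in place of 6, and all genes called were 1344 of 2349 for the line difference with ATO, 3020 of 4554 for HL-60 with ATO and 1824 of 3056 for the NB4 interaction. Leaving out 1 library gave 3 to 7 called receptors for the combination against ATRA in NB4. For results never called, the cause of the changed sign was not tested. CXCR1, line difference with ATRA: DESeq2 0.011, limma-voom 0.116, 1 library left out -0.394 to 0.101. C5AR1, line difference with ATO: limma-voom -0.111, every gene with a read -0.003, left out -0.207 to 0.385. CCR1, line difference with both: library sizes 0.049. CXCR1, HL-60 ATRA: limma-voom -0.008, left out -0.097 to 0.424. CXCR2, HL-60 ATO: library sizes 0.012, left out -0.050 to 0.033. C5AR1, HL-60 interaction: limma-voom -0.011, left out -0.094 to 0.496. CXCR4, NB4 combination against ATRA: library sizes 0.006, left out -0.270 to 0.023. Only leaving out 1 library turned FPR1 (line difference with ATO, -0.776 to 0.317), CXCR5 (untreated lines -3.308 to 0.000, HL-60 ATO -2.646 to 1.817, HL-60 interaction -2.117 to 2.340), FPR2 (HL-60 combination against ATO, -0.893 to 0.219) and CCR2 (NB4 combination against ATO, -0.143 to 0.428). Depth limits CXCR1, FPR1, FPR2 and NB4 CCR2, which had few counts.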
